A study of Populus euphratica with 12 samples.

Results

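The comparison of broad-ovate (Bo) with ovate (Ov) leaves of *P. euphratica*, the desert poplar, covers the last step of the leaf series that this tree passes through as it ages. Its members were taken by label: Bo1, Bo2 and Bo3 from trees over 20 years old, and Ov1, Ov2 and Ov3 from trees of 8 to 12 years, 6 of the 12 small RNA libraries of the series. The other libraries came from lanceolate (La) leaves of trees of 4 to 6 years and linear (Li) leaves of trees of 0 to 3 years, 3 of each. Every library was made from the second juvenile leaf in the bud, and the 3 of each leaf type are described as biological replicates. How many trees went into each library is not stated in those sources. Leaf type and tree age change together over these groups, so they cannot be told apart.

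A plant miRNA is a short RNA cut from a hairpin transcript. It is loaded into an ARGONAUTE protein and guides the cleavage or the translational block of mRNAs whose sequence pairs with it almost along its whole length. Many conserved plant miRNAs have transcription factors as targets, and in Arabidopsis and other species several of these set the change from juvenile to adult leaves, the flatness of the blade, the shape of its margin and the response to auxin. In poplars, miR156 is known for its high level in juvenile shoots.

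The deposited tables list 257 miRNAs, of which 166 are annotated, 52 are mature miRNAs predicted on the genome and 39 are the star sequences of predicted precursors. Values are RPM, in which each library's reads on the listed miRNAs are scaled to the same sum. The Bo libraries held 199583, 316519 and 318495 such reads, and the Ov libraries 632114, 297588 and 358301. A single read was therefore worth 5.01 RPM in Bo1 and 1.58 RPM in Ov1, and where no read was seen the level could still be as high as 15.0 RPM in Bo1 or 4.75 RPM in Ov1 (a floor of 3 reads, for counting error alone). No library was a copy of another, since over the 15 pairs of these 6 libraries the chi-square per degree of freedom was 43.7 or more. Of the 257 miRNAs, 209 averaged 1 RPM or more over the 6 libraries and were tested (137 annotated, 52 predicted and 20 star sequences). The 48 that were not tested had at most 3 reads in the 6 libraries together, and 18 of them had none. The miRNAs closest to the filter were ptc-miR6473 and ptc-miR159c on the inside, with a mean of 1.05 RPM each, and ptc-miR6469 (0.992 RPM) and ptc-miR7831 (0.930 RPM) on the outside.

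Between Bo and Ov leaves, 6 of the 209 miRNAs passed the adjusted threshold (2.87%), and each of them was lower in Bo. They were ptc-miR156a and ptc-miR156g, both arms of ptc-miR477a, ptc-miR169n-3p and the predicted miRNA NW_011500122.1_25017. The test was limma on log2(RPM + 1), with a Benjamini-Hochberg adjusted p under 0.05 as the threshold, and fold changes below are Bo over Ov on this scale, where the added 1 makes changes of sparsely read miRNAs look smaller. At an unadjusted p under 0.05 there were 32 miRNAs (15.3%), 17 higher in Bo (8.13%) and 15 lower (7.18%). The log2 fold change was positive for 112 miRNAs and negative for 97, with a median of 0.06 over all 209.

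How many lay on each side of 0 changed with the scaling. Under RLE scaling, which makes the median ratio over miRNAs equal between libraries, the median fold change moved down by 0.17 on the log2 scale, to -0.11. Of the 29 miRNAs then under an unadjusted p of 0.05, 9 were higher in Bo and 20 were lower. The same 6 miRNAs passed the adjusted threshold. At the unadjusted threshold, leaving out Bo1 gave 8 higher and 14 lower, leaving out Bo2 gave 11 and 16, and leaving out Bo3 gave 22 and 16. Leaving out an Ov library gave 12 to 16 higher and 15 lower. The values of the 3 Bo and the 3 Ov libraries did not overlap for 44 of the 209 miRNAs (21.1%), 25 of them higher and 19 lower in Bo, and 26 of these 44 were among the 32. In bulk leaf tissue, fewer cells of a type and less of a miRNA per cell cannot be told apart.

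**Figure D1:**
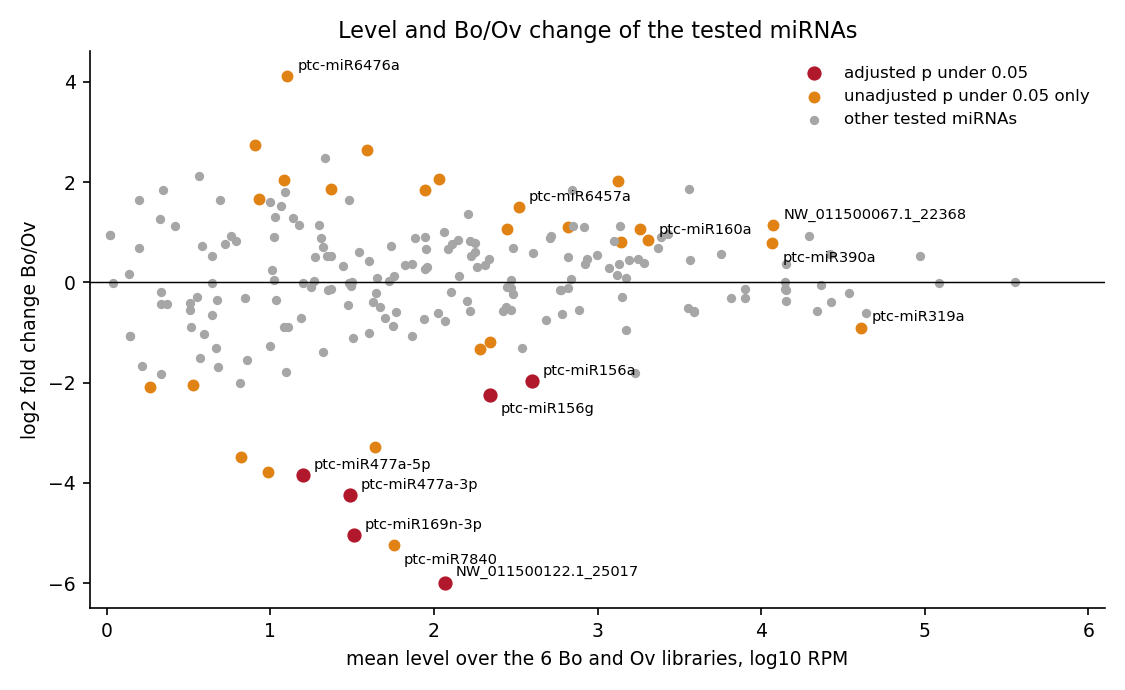
Mean level over the 6 libraries (x axis, log10 RPM) against the log2 fold change Bo/Ov (y axis) for the 209 tested miRNAs. The 6 red points past the adjusted threshold lie between -1.97 and -5.99, and the orange points (unadjusted p under 0.05 only) lie on both sides of 0.

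The miR156 family, which represses SPL transcription factors and so delays the change to adult shoots, was lower in Bo leaves. ptc-miR156a had 195, 174 and 116 RPM in Bo leaves, against 471, 810 and 625 RPM in Ov leaves. The highest Bo library lay below the lowest Ov library, and the log2 fold change was -1.97 (SE 0.39, adjusted p = 0.0099). These levels rest on 131 reads in Bo and 763 in Ov, a ratio of 3.77 in favour of Ov (95% exact interval 3.13 to 4.58, counting error only). ptc-miR156g had 60.1, 63.2 and 109.9 RPM in Bo leaves, against 270.5, 373.0 and 449.3 RPM in Ov leaves. It fell by 2.24 on the log2 scale (SE 0.41, adjusted p = 0.0050), again with no overlap. The balance of the members varied among the Bo libraries, with ptc-miR156a well above ptc-miR156g in Bo1 and nearly level with it in Bo3.

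Summed over its 4 listed members, miR156 came to 256, 237 and 226 RPM in Bo leaves and 744, 1183 and 1075 RPM in Ov leaves. The sum varied less among the Bo libraries (239.5 ± 14.9 RPM, SD, n = 3) than either member did, and it was lower than the Ov mean of 1000.3 ± 228.9 RPM (SD, n = 3) by 2.03 on the log2 scale (SE 0.33, adjusted p = 0.0016 over 135 family sums and single predicted miRNAs). The other 2 members, each under the filter, were not tested. When only the 6 Bo and Ov libraries were fitted, the adjusted p of ptc-miR156a was 0.059 and that of ptc-miR156g was 0.055, and without Ov2 the adjusted p of ptc-miR156a was 0.063. Over all alternatives the adjusted p ranged from 0.0021 to 0.11 for ptc-miR156a, from 0.0027 to 0.11 for ptc-miR156g and from 0.00054 to 0.076 for the family sum.

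miR172 represses AP2-type transcription factors and acts downstream of the miR156 module in Arabidopsis, where its level is high in adult shoots. All 6 listed members were tested, and none passed the adjusted threshold. Fold changes were positive for 2 and negative for 4, with a median of -0.16. The most abundant member, ptc-miR172a, had 6153, 5437 and 5262 RPM in Bo leaves, against 10479, 7641 and 4259 RPM in Ov leaves. The groups overlapped, and the log2 fold change was -0.32 (SE 0.34, adjusted p = 0.65). Only ptc-miR172i, chosen after its values were seen, was under an unadjusted p of 0.05, with 0, 0 and 3.14 RPM in Bo leaves against 4.75, 6.72 and 5.58 RPM in Ov leaves, levels of 1 to 3 reads.

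Both arms of the miR477a hairpin, a family annotated in poplar, were at the limit of detection in Bo leaves. ptc-miR477a-3p had 5.01, 3.16 and 0 RPM in Bo leaves, against 64.9, 30.2 and 80.9 RPM in Ov leaves. These were 1, 1 and 0 reads in Bo and 41, 9 and 29 reads in Ov, and the ratio of pooled levels was 25.6 in favour of Ov (95% exact interval 6.85 to 215, counting error only). Its log2 fold change was -4.24 (SE 0.72, adjusted p = 0.0035). ptc-miR477a-5p had 0, 0 and 6.28 RPM in Bo leaves, against 49.0, 20.2 and 19.5 RPM in Ov leaves. The ratio from 2 reads in Bo and 44 in Ov was 14.3 in favour of Ov (3.72 to 121), and the log2 fold change was -3.85 (SE 0.92, adjusted p = 0.038).

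The call for the 5p arm depended on single libraries. Its adjusted p was 0.18 without Bo1, 0.23 without Bo2, 0.14 without Ov1, 0.096 without Ov2 and 0.10 without Ov3, and it ranged from 0.010 to 0.23 over all alternatives. With a pseudocount of 10 it was 0.15. The 3p arm passed when any 1 of the 6 libraries was left out and with a pseudocount of 10, and its adjusted p ranged from 0.0014 to 0.079 over all alternatives. Summed over the hairpin arms, miR477 had 5.01, 3.16 and 6.28 RPM in Bo leaves, against 113.9, 50.4 and 100.5 RPM in Ov leaves, and no Bo library held more than 2 of these reads. This family sum had the smallest p of the 135, with a log2 fold change of -3.90 (SE 0.56, adjusted p = 0.00099). The other families of the poplar list did not pass. Of the 9 tested members of miR473, miR475, miR476 and miR477, only the 2 arms of the miR477a hairpin were lower at an unadjusted p under 0.05, and none was higher. Over all 209, 7.18% were lower and 8.13% higher. With the 2 arms of miR477a included, the median log2 fold change of the 9 was -0.58, against 0.06 over all 209.

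ptc-miR169n-3p comes from the arm opposite to the one that carries the conserved miR169 sequence, whose targets are subunits of the NF-Y transcription factor (NF-YA). It had 0, 0 and 3.14 RPM in Bo leaves, against 110.7, 20.2 and 61.4 RPM in Ov leaves. A single read in Bo3 stood against 70, 6 and 22 reads in Ov, a ratio of 63.5 in favour of Ov (95% exact interval 11.1 to 2533, counting error only). The log2 fold change was -5.04 (SE 0.80, adjusted p = 0.0029). The other arm, ptc-miR169n-5p, had 1 read in Ov1 and none in the other 5 libraries, so its change was not detectable at this depth.

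The miR169 family as a whole gave no common direction. Of its 11 tested members, ptc-miR169n-3p included, 3 had a positive and 8 a negative log2 fold change (median -0.64). ptc-miR169d had 40.1, 31.6 and 34.5 RPM in Bo leaves, against 11.1, 20.2 and 2.79 RPM in Ov leaves (log2 fold change 1.87, SE 0.70, adjusted p = 0.23). ptc-miR169ac had no read in the Bo libraries, against 25.3, 3.36 and 11.2 RPM in Ov leaves. With 3 reads over the 3 Bo libraries as the floor, it was 4.54-fold lower in Bo. This ratio leaves out the error of the Ov reads and the spread between libraries, and the adjusted p was 0.19. The family sum was -0.39 on the log2 scale (SE 0.50, adjusted p = 0.66).

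The predicted miRNA NW_011500122.1_25017 had the lowest fold change of all. Its precursor lies from position 327843 to 327911 of scaffold NW_011500122.1, plus strand (PopEup_1.0 scaffold names), and the genes at this position were not analysed here. It had 0, 3.16 and 3.14 RPM in Bo leaves, against 121.8, 507.4 and 69.8 RPM in Ov leaves, which were 0, 1 and 1 reads in Bo and 77, 151 and 25 reads in Ov. The ratio of pooled levels was 82.0 in favour of Ov (95% exact interval 22.5 to 680.5, counting error only), and the log2 fold change was -5.99 (SE 0.89, adjusted p = 0.0027). Over all alternatives its adjusted p was at most 0.025. The star sequence of this precursor had no read in any of the 6 libraries.

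**Figure D2:**
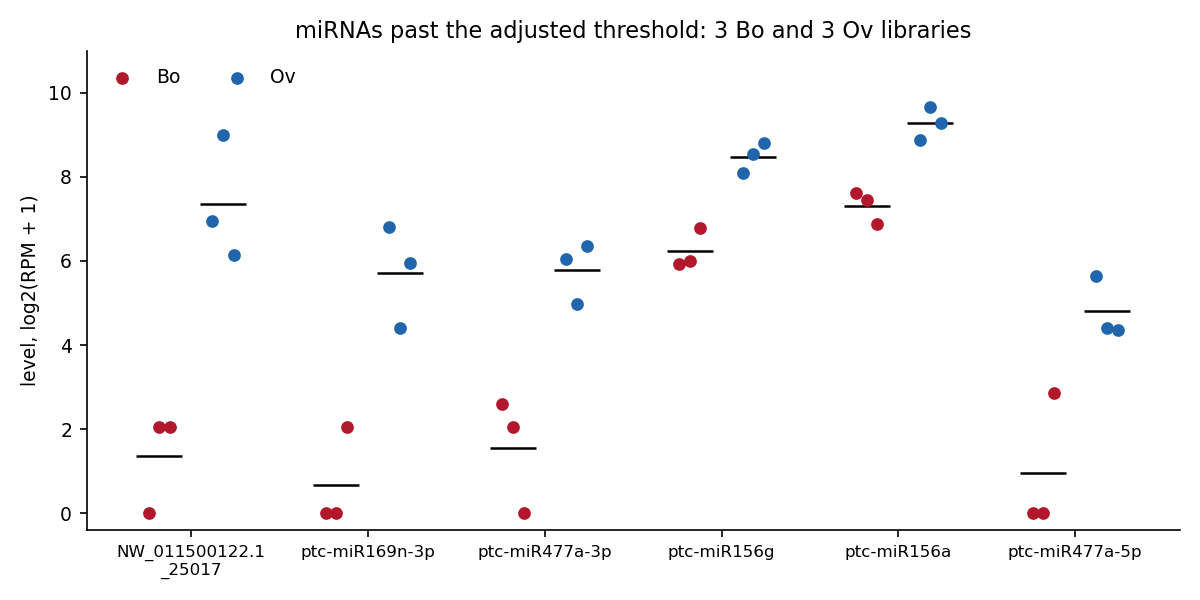
Levels of the 6 miRNAs past the adjusted threshold as log2(RPM + 1) on the y axis, with a point for each of the 3 Bo (red) and 3 Ov (blue) libraries and a bar at the group mean. In none of the 6 did a Bo library reach the lowest Ov library.

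Set in the leaf series, the 6 miRNAs formed 2 patterns, given here as a description. The miR156 members stepped down at each leaf type. ptc-miR156a averaged 3822 RPM in Li, 1305 RPM in La, 635 RPM in Ov and 162 RPM in Bo leaves, and ptc-miR156g averaged 1020, 585, 364 and 77.7 RPM in the same order. Neighbouring leaf types did not overlap for either member. The values of ptc-miR156a, for example, ended at 195 RPM in Bo and 810 RPM in Ov and began at 471 RPM in Ov and 923 RPM in La.

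For the other 4, the ranges of neighbouring leaf types overlapped among Li, La and Ov leaves, and all Bo libraries lay below the 9 others. NW_011500122.1_25017 was between 69.8 and 507 RPM in the 9 Li, La and Ov libraries and at most 3.16 RPM in Bo. ptc-miR169n-3p was between 20.2 and 140 RPM in those 9 libraries and at most 3.14 RPM in Bo. For ptc-miR477a-3p the 9 values ran from 30.2 to 206 RPM, above 5.01 RPM as the highest in Bo, and for ptc-miR477a-5p from 11.2 to 111 RPM, above 6.28 RPM.

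**Figure D3:**
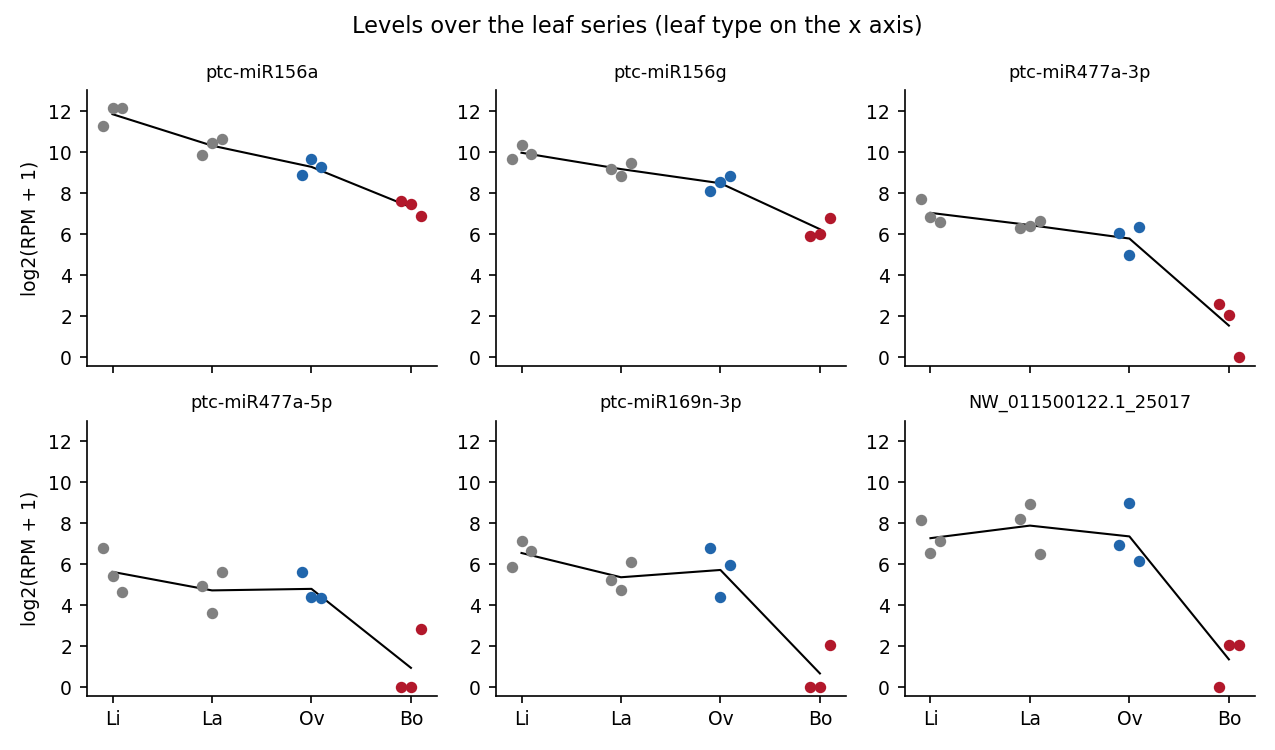
Levels of the same 6 miRNAs over the leaf series (x axis, leaf type; y axis, log2(RPM + 1)), with 3 libraries for each leaf type and a line through the group means. ptc-miR156a and ptc-miR156g went down at every leaf type, and the other 4 were at their lowest in Bo, where no library exceeded 6.28 RPM.

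Next to the adjusted threshold stood ptc-miR6476a, ptc-miR7840 and ptc-miR6457a. ptc-miR6476a had 25.1, 47.4 and 3.14 RPM in Bo leaves and no read in the Ov libraries. Its 21 reads gave a level 10.8-fold higher in Bo than a floor of 3 reads over the 3 Ov libraries. This ratio leaves out the error of the 21 reads and the spread between libraries, and the adjusted p was 0.087. It was the only miRNA with a read in all 3 Bo libraries and in no Ov library. ptc-miR7840 had 5.01, 3.16 and 0 RPM in Bo leaves, against 120, 114 and 97.7 RPM in Ov leaves, a log2 fold change of -5.25 with a wide error (SE 1.47, adjusted p = 0.087). The Ov libraries differed little among themselves here, and with only the 6 Bo and Ov libraries fitted the adjusted p was 0.0054 (range over all alternatives 0.0054 to 0.28). ptc-miR6457a had 541, 505 and 383 RPM in Bo leaves, against 88.6, 232 and 223 RPM in Ov leaves (log2 fold change 1.50, SE 0.45, adjusted p = 0.11). Its level was 305 to 422 RPM in La, which overlapped Bo, and 243 to 378 RPM in Li. For ptc-miR7840 the La libraries had 0 to 67.2 RPM and the Li libraries 2.34 to 64.2 RPM, so levels as low as in Bo occurred there too. ptc-miR6476a had no read in La and 0 to 18.7 RPM in Li. Without Bo3, ptc-miR6476a had an adjusted p of 0.026, and it ranged from 0.026 to 0.28 over all alternatives.

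Presence and absence rested on few reads elsewhere. Of the 257 miRNAs, 239 had a read in at least 1 of the 6 libraries and 149 in all 6. There were 17 with a read in Bo and none in Ov, with a median of 1 read, and 27 with a read in Ov and none in Bo, with a median of 2 reads. These counts are not at equal depth, since the Bo libraries together held 834597 reads and the Ov libraries 1288003. In all 3 Ov libraries but in no Bo library there were 3 miRNAs, ptc-miR6447, ptc-miR399e and ptc-miR169ac. ptc-miR6447 had 1.58, 6.72 and 2.79 RPM in Ov leaves, 4 reads in all. ptc-miR399e had 6.33, 6.72 and 44.7 RPM in Ov leaves, most of it in Ov3. With a floor of 3 reads over the 3 Bo libraries, it was 4.75-fold lower in Bo. This ratio leaves out the error of the Ov reads and the spread between libraries, and the adjusted p was 0.17.

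Among the families described next, from miR319 to miR171, which act on leaf growth and form, no member passed the adjusted threshold. The members of miR319, which represses TCP transcription factors that restrain cell proliferation at the leaf edge in Arabidopsis, had a negative fold change in 3 of 3 cases. ptc-miR319a had 23775, 34124 and 26748 RPM in Bo leaves, against 54843, 39037 and 66207 RPM in Ov leaves. The groups did not overlap, and the log2 fold change was -0.90 (SE 0.32, adjusted p = 0.19). The family sum was 37639, 54218 and 46425 RPM in Bo leaves against 83670, 62865 and 92643 RPM in Ov leaves (log2 fold change -0.79, SE 0.29, adjusted p = 0.21).

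miR159, which represses GAMYB-like transcription factors and is close to miR319 in sequence, gave values near 0. ptc-miR159a, the most abundant miRNA, had 366494, 389746 and 308234 RPM in Bo leaves, against 309481, 383564 and 369996 RPM in Ov leaves. Its mean share of the reads was 35.5% ± 4.20 in Bo and 35.4% ± 3.94 in Ov (SD, n = 3 each). The log2 fold change was 0.00 (SE 0.16) and -0.20 with RLE scaling.

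Of the 15 miRNAs of the auxin list, 10 had a positive and 5 a negative fold change (9 and 6 with RLE scaling), with a median of 0.36 (0.16 with RLE scaling). At an unadjusted p under 0.05, 3 of the 15 were higher and none lower in Bo, beside 8.13% higher and 7.18% lower over all 209. miR390 starts the production of small interfering RNAs that act on auxin response factors, and both of its listed members were among the 3. Of these, ptc-miR390d-3p comes from the arm opposite to the one with this role. The list also holds other opposite arms, such as ptc-miR160e-3p and ptc-miR393a-3p. ptc-miR390a had 14676, 14944 and 14022 RPM in Bo leaves, against 12287, 6079 and 7960 RPM in Ov leaves (log2 fold change 0.79, SE 0.31, adjusted p = 0.26). The Bo libraries were close to each other and all above the Ov libraries, of which Ov1 was nearest. ptc-miR390d-3p had 1954, 1753 and 3689 RPM in Bo leaves, against 1766, 1042 and 765 RPM in Ov leaves, with Ov1 just above the lowest Bo library.

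The third was ptc-miR160a, of a family that represses another group of auxin response factors. It had 2390, 2840 and 2556 RPM in Bo leaves, against 1735, 1670 and 1030 RPM in Ov leaves (log2 fold change 0.85, SE 0.30, adjusted p = 0.19). The other miR160 members gave 4 positive and 1 negative fold changes. ptc-miR167e, of the family that represses auxin response factors that act in flowers and roots of Arabidopsis, gave -0.58 (SE 0.44), and ptc-miR393a-5p, of the family that represses auxin receptors, gave 0.60 (SE 0.69).

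miR166 represses the class III HD-ZIP factors that set the upper side of the leaf. Its dominant member ptc-miR166a had 123943, 100092 and 136643 RPM in Bo leaves, against 158992, 101923 and 108649 RPM in Ov leaves, a log2 fold change of -0.02 (SE 0.22). ptc-miR166n had 95795, 77392 and 157440 RPM in Bo leaves against 99738, 82527 and 47279 RPM in Ov leaves (0.53, SE 0.36, adjusted p = 0.50). Bo3 was the highest and Ov3 the lowest of the 6 for this miRNA, and the other 4 overlapped.

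For the leaf margin, miR164 represses NAC factors of the CUC group and miR394 an F-box protein named LEAF CURLING RESPONSIVENESS in Arabidopsis. All 4 tested members had positive fold changes, also with RLE scaling, and none was under an unadjusted p of 0.05. ptc-miR394a-5p had 12942, 14650 and 19099 RPM in Bo leaves against 18410, 8468 and 10994 RPM in Ov leaves, with a log2 fold change of 0.36 (SE 0.31), and ptc-miR164a gave 0.29 (SE 0.50).

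miR396 represses growth-regulating factors, which promote cell division in leaves. Of its 6 members 3 were positive and 3 negative, and 1 of each was under an unadjusted p of 0.05, both chosen after their values were seen. Over all 209, 8.13% were higher and 7.18% lower at this threshold. Among the negative members, ptc-miR396g-3p and ptc-miR396e-3p (-0.52) come from the arm opposite to the one that acts on growth-regulating factors. ptc-miR396f had 2891, 2613 and 769 RPM in Bo leaves, against 959, 655 and 137 RPM in Ov leaves. ptc-miR396g-3p had 120, 142 and 56.5 RPM in Bo leaves, against 247, 148 and 427 RPM in Ov leaves. Their log2 fold changes were 2.02 (SE 0.91) and -1.33 (SE 0.58), with adjusted p values of 0.31 and 0.29, while the dominant ptc-miR396c gave -0.15 (SE 0.54). For miR171, which represses GRAS factors that maintain meristems, 5 of the 6 tested members were positive, with 0.39 (SE 0.35) for the most abundant, ptc-miR171e, and none was under an unadjusted p of 0.05.

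**Figure D4:**
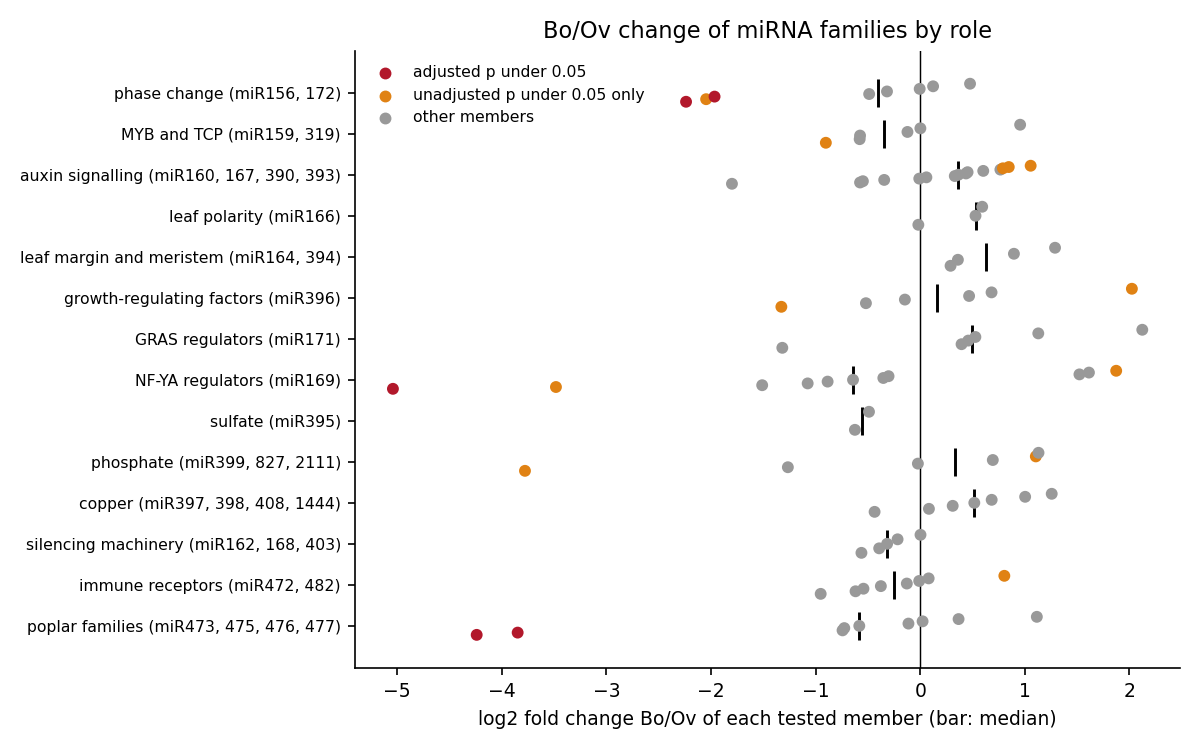
Log2 fold change Bo/Ov (x axis) of every tested member of the 14 family lists, with a bar at the median of each list. Red points passed the adjusted threshold (2 miR156 members, ptc-miR169n-3p and the 2 arms of miR477a), orange points had an unadjusted p under 0.05 only, and grey points neither.

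miRNAs of nutrient supply were mixed. miR399 represses the ubiquitin conjugase PHO2 under phosphate shortage in Arabidopsis, and its dominant member ptc-miR399f had 1117, 913 and 641 RPM in Bo leaves, against 574, 222 and 514 RPM in Ov leaves. The groups did not overlap and the log2 fold change was 1.10 (SE 0.50, adjusted p = 0.31). The other 3 tested miR399 members had negative fold changes, so that the median over single miR399 members was -0.64. The miR399 family sum, mostly ptc-miR399f, was 1122, 932 and 641 RPM in Bo leaves, against 584, 245 and 586 RPM in Ov leaves. Its log2 fold change was positive, at 0.997 (SE 0.494, adjusted p = 0.297). The phosphate list had 3 positive and 3 negative members. ptc-miR827 (1.13, SE 0.61) and ptc-miR2111a (0.69, SE 0.47), were positive and not under an unadjusted p of 0.05. For sulfate, ptc-miR395b, which acts on ATP sulfurylases, gave -0.62 (SE 0.62). The copper list holds miR397, miR398 and miR408, whose targets in Arabidopsis are copper proteins such as laccases, and also miR1444. Of its 7 tested miRNAs, 6 were positive (5 with RLE scaling) and none was under an unadjusted p of 0.05. The largest by level was ptc-miR398b, with 0.31 (SE 0.51), and for ptc-miR408-3p the 3 Bo libraries had 120, 272 and 78.5 RPM and the 3 Ov libraries 36.4, 80.7 and 106 RPM. ptc-miR397a (-0.44, SE 0.94) and ptc-miR1444d (12.6 RPM in Bo2 and 0 in the other 5 libraries) were at 1 to 4 reads.

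miRNAs that act on the silencing machinery itself gave 1 positive and 4 negative fold changes, none under an unadjusted p of 0.05. ptc-miR162a, which acts on the Dicer enzyme that makes miRNAs, gave -0.22 (SE 0.41). ptc-miR168a-3p, the arm opposite to the one that acts on ARGONAUTE, gave 0.00 (SE 0.20, and -0.20 with RLE scaling), and its 6 values were all between 13299 and 14692 RPM. The acting arm, ptc-miR168a-5p, chosen after its values were seen, gave -0.32. ptc-miR403a, which acts on another ARGONAUTE, gave -0.39 (SE 0.26).

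miR472 and miR482 act on transcripts of NBS-LRR immune receptors. ptc-miR472b had 33415, 38854 and 28936 RPM in Bo leaves, against 39879, 45321 and 75247 RPM in Ov leaves. The groups did not overlap, and the log2 fold change was -0.62 (SE 0.30, unadjusted p = 0.062). ptc-miR482c-5p comes from the arm opposite to the one that acts on these receptors. It had 2465, 1441 and 1473 RPM in Bo leaves, against 951, 877 and 1178 RPM in Ov leaves (0.80, SE 0.34, adjusted p = 0.28). The 3p arm of the same hairpin, ptc-miR482c-3p, gave -0.13 (SE 0.35). Of the 8 tested members of both families, 2 were positive and 6 negative (1 and 7 with RLE scaling), with a median of -0.25. In the poplar list, ptc-miR475a-3p, of a family that acts on pentatricopeptide repeat transcripts in poplar, gave -0.58 (SE 0.42), ptc-miR476a gave 1.11 (SE 0.76) and ptc-miR473a-3p gave 0.37 (SE 0.77).

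Of the annotated miRNAs outside these lists, ptc-miR6461 (15.0, 25.3 and 3.14 RPM in Bo leaves against 4.75, 0 and 0 RPM in Ov leaves) and peu-miR2916 (20.0, 28.4 and 12.6 RPM against 3.16, 3.36 and 5.58 RPM) were among the 12 smallest p values on the higher side, with 12 and 17 Bo reads in all. ptc-miR6430 was among those on the lower side, with 145, 164 and 94.2 RPM in Bo leaves against 282, 249 and 391 RPM in Ov leaves (log2 fold change -1.20, SE 0.46, adjusted p = 0.23).

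Predicted miRNAs had a larger share of the reads in each Bo library than in any Ov library. The share was 8.42%, 8.47% and 9.67% in Bo leaves, against 5.06%, 8.10% and 6.81% in Ov leaves, and the annotated share was 89.8% ± 0.52 in Bo and 92.4% ± 1.63 in Ov (SD, n = 3 each). No Bo value overlapped an Ov value for either, nor for the star sequences, with 1.30% ± 0.22 in Bo and 0.95% ± 0.11 in Ov (SD, n = 3 each). The 10 miRNAs with the highest means over the 6 libraries held 77.2% ± 0.89 of the reads in Bo and 80.1% ± 0.75 in Ov (SD, n = 3 each). For each of these 4 shares the 2-sided exact permutation test gave p = 0.1, the smallest that 3 against 3 libraries allow, and 0.225 after adjustment over 9 measures.

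At the level of single miRNAs, 6 of the 52 predicted miRNAs were higher and 2 lower at an unadjusted p under 0.05, a share close to the 15.3% under this threshold over all 209. Their median log2 fold change was 0.35 (0.15 with RLE scaling). Of the 137 annotated miRNAs 11 were higher and 13 lower (median -0.01, and -0.20 with RLE scaling), and none of the 20 star sequences was under the threshold (median 0.65, and 0.48 with RLE scaling). NW_011500067.1_22368, at 59999 to 60076 on the plus strand of scaffold NW_011500067.1, had 10101, 19004 and 20296 RPM in Bo leaves, against 6776, 6674 and 7915 RPM in Ov leaves (log2 fold change 1.15, SE 0.37, adjusted p = 0.16). It alone contributed 0.93 of the 2.20 percentage points by which the predicted share differed. NW_011499875.1_8560, chosen after its values were seen, contributed another 1.08 points. NW_011499965.1_16822, at 305165 to 305226 on the minus strand of scaffold NW_011499965.1, had 110, 82.1 and 342 RPM in Bo leaves, against 34.8, 57.1 and 19.5 RPM in Ov leaves (2.07, SE 0.62, adjusted p = 0.11). NW_011499895.1_11020 had 230, 126 and 62.8 RPM in Bo leaves, against 23.7, 26.9 and 58.6 RPM in Ov leaves (1.84, SE 0.69, adjusted p = 0.23).

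The number of miRNAs with a read was lowest in Bo1, the shallowest library, and highest in Ov1, the deepest. It was 177, 195 and 182 in Bo leaves and 210, 189 and 188 in Ov leaves. At the depth of Bo1, the expected numbers were 177, 184 and 175 in Bo and 184, 182 and 177 in Ov, a difference in means of -2.62 miRNAs (2-sided exact permutation test, p = 0.6). Over all tested miRNAs, the distance between libraries (1 minus the Pearson correlation of log2 values) was 0.0357 to 0.0855 within Bo, 0.0560 to 0.0841 within Ov and 0.0814 to 0.115 between Bo and Ov libraries. The median distance of Bo to La libraries was 0.0953, close to the 0.0935 of Bo to Ov.

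In the table of family sums, 3 of 135 rows passed the adjusted threshold (2.22%), miR156, miR477 and NW_011500122.1_25017, and 19 were under an unadjusted p of 0.05 (14.1%). Without Bo3, 6 rows passed. The log2 ratio of the arms of a hairpin (5p over 3p, or mature over star) was tested for 36 hairpins with both arms above the filter. By limma none passed the adjusted threshold, and 3 were under an unadjusted p of 0.05 (8.33%), ptc-miR482c, ptc-miR396g and NW_011500042.1_20559, named because they were so few. Each ratio was higher in Bo, by 0.93 (SE 0.36), 1.79 (SE 0.77) and 1.99 (SE 0.80) on the log2 scale, with an adjusted p of 0.50 for all 3. Among the hairpins with a listed mature and star form, NW_011500042.1_20559 had a mean log2 ratio of 7.02 in Bo and 5.02 in Ov. Its star form had only 15.0, 3.16 and 81.6 RPM in Bo leaves, against 17.4, 23.5 and 100 RPM in Ov leaves. The value in Bo2 was a single read.

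The last step of the leaf series (Bo/Ov) was set against its earliest step (La/Li), which shares no library with it, by testing the difference of the log2 fold changes. This difference passed the adjusted threshold for 5 of the 209 miRNAs (2.39%), all of which are named here because they were so few. NW_011500122.1_25017 changed by -5.99 in the last step and 0.61 in the earliest, and ptc-miR6476a by 4.12 and -2.67. For ptc-miR399f the changes were 1.10 and -2.10. For ptc-miR395b (-0.62 and -5.51) and ptc-miR6462c-5p (-0.88 and 4.09) the larger change lay between La and Li, where ptc-miR395b averaged 781 RPM in La and 46037 RPM in Li. Without Bo2, Ov2, Ov3, Li2 or Li3 no miRNA passed, and without Bo1 or Bo3 there were 2 (La and Li libraries were left out after the data were seen). By the same test the difference was -0.43 (SE 0.56, adjusted p = 0.69) for ptc-miR156a and -1.44 (SE 0.57, adjusted p = 0.19) for ptc-miR156g. It was -1.72 (SE 0.46, adjusted p = 0.063) for ptc-miR319a and 1.70 (SE 0.45, adjusted p = 0.063) for ptc-miR390a.

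**Figure D5:**
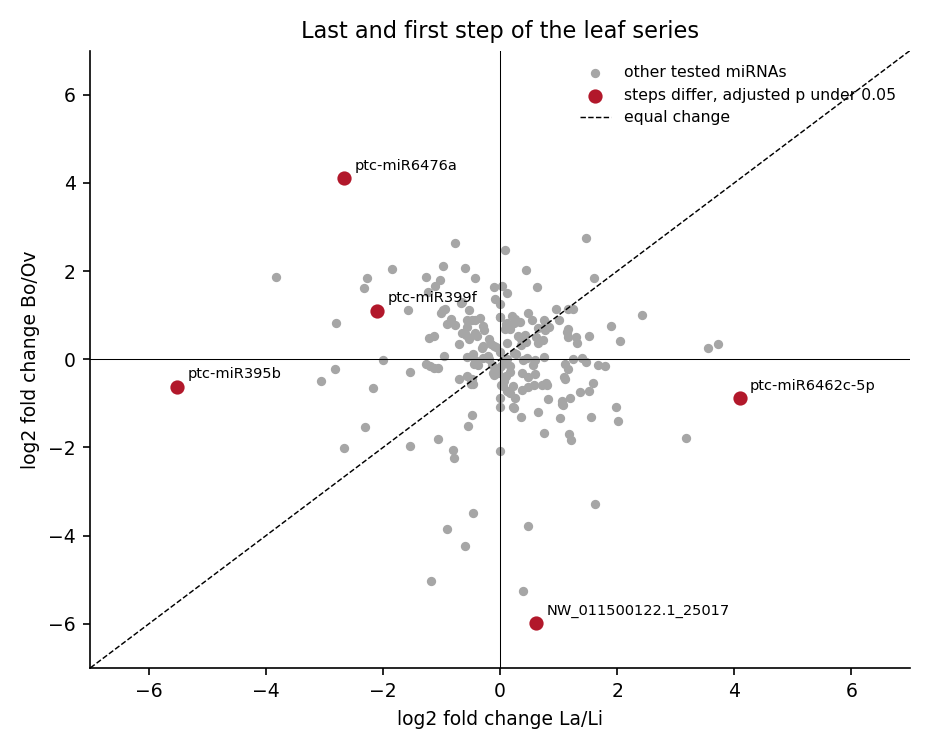
Log2 fold change La/Li (x axis) against Bo/Ov (y axis) for the 209 tested miRNAs, with a dashed line where the 2 are equal. The 5 red points are those whose steps differed past the adjusted threshold, from ptc-miR395b at -5.51 on the x axis to NW_011500122.1_25017 at -5.99 on the y axis.

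Members of a family can differ by few bases, and how reads matching more than 1 entry were treated is not stated. Values of single members of miR156, miR166, miR319, miR390 and the other families are therefore uncertain beside their family sum.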

How the data were processed

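Small RNA was sequenced from 12 *P. euphratica* leaf samples (4 leaf types, 3 biological replicates each), grouped by their titles. The authors aligned reads to miRBase v.21 without mismatch, used miRDeep2 to predict other miRNAs with their star forms on the PopEup_1.0 genome and deposited RPM values, which they call TPM, for 257 miRNAs in each sample. For read trimming and the miRDeep2 version: not given in the sources used here. Every column adds up to the same total, and all values are whole multiples of the smallest within 0.001, which gave the reads per library. These were used for depth, floors and intervals only, because too few low values remained for a count model. Sequences were not used here.

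limma 3.58.1 (R 4.3.3, trend in the variance, 2-sided, Benjamini-Hochberg adjustment over the 209 miRNAs tested) was fitted to log2(RPM + 1) of all 12 samples with 4 group means. Family sums, arm ratios and the difference of steps were fitted likewise, the arm ratios without trend. The script was tested on simulated data. Shares were compared by exact permutation. Ratios of pooled reads carry exact binomial 95% intervals, which cover counting error only. Further tools were Python 3.11.15, numpy 2.4.6, pandas 2.3.3, scipy 1.17.1 and matplotlib 3.10.9.

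The members, family lists and tests were chosen with earlier results of these data known. Named miRNAs are those past the adjusted threshold and their other arms, the 12 smallest unadjusted p values in each direction, the 6 most abundant, the most abundant of each listed family and the 3 just outside the threshold. Others are marked. Alternatives were other pseudocounts, filters and scalings, robust variances, a replicate block, only 6 samples and each Bo and Ov library left out, and, for the difference of steps, each La and Li library too. The replicate numbers were checked for pairing: deviations of same-numbered Bo and Ov libraries correlated at 0.10, -0.10 and -0.08. This gave no sign of pairing, but deviations from a mean of 3 libraries cannot exclude it.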

Additional observations from a re-analysis of the deposited data

Results flagged for a closer look

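The change in the last step (Bo/Ov) differed from that in the earliest step (La/Li) for 5 miRNAs by limma's test of the difference, at an adjusted p under 0.05. The difference of log2 fold changes, last minus earliest, was 4.89 for ptc-miR395b (adjusted p = 0.015), -6.60 for NW_011500122.1_25017 (adjusted p = 0.015) and 3.21 for ptc-miR399f (adjusted p = 0.036). It was -4.97 for ptc-miR6462c-5p (adjusted p = 0.037) and 6.79 for ptc-miR6476a (adjusted p = 0.039). NW_011500122.1_25017 and ptc-miR6476a are the pair in which the Bo/Ov step was the larger change. Over the alternatives the adjusted p reached 0.086, 0.069, 0.10, 0.10 and 0.14 for the 5 in the order given here.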

How the results depend on the processing

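The count of 6 miRNAs past the adjusted threshold was 6 with a pseudocount of 0.1 or 10, without a filter, with a mean of at least 10 RPM, with RLE scaling, with totals taken without ptc-miR159a and with robust variances, and the same 6 passed in all of these except a pseudocount of 10 and no filter, where ptc-miR477a-5p did not pass. With only the 6 Bo and Ov samples it was 4, of which 3 were among the 6. Leaving out each Bo and Ov library in turn gave 4 to 9 miRNAs, and 22 to 38 at the unadjusted threshold. The deviations of same-numbered libraries gave no sign of pairing, which does not exclude it. With the replicate number as a block the count was 6 with all 12 samples and 3 with only 6 samples, and the unadjusted counts were 38 and 26. With the block and only 6 samples, ptc-miR156a, ptc-miR156g, both arms of ptc-miR477a and the miR156 sum (adjusted p = 0.076) did not pass.

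The 3 family sums became 3 to 6 when each Bo and Ov library was left out. The arm ratios gave 2 calls with no filter, where more hairpins were tested. The 5 differences of steps became 1 with a pseudocount of 10 and 10 with the replicate block, and 0 to 6 when each of the 12 libraries was left out (La and Li as settings chosen after seeing the data), and the cause was not tested. Their test was not fitted with only 6 samples, which lack La and Li. Arm ratios were not rescaled, since scaling cancels in them except for the added 1. For hairpins with an arm of few reads the effect of scaling was therefore not tested. The difference in miRNAs with a read was -11 at full depth and -7.67 with at least 3 reads, which the depth of the libraries enters directly.

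Changes near 0 turned sign. RLE scaling gave -0.20 for ptc-miR159a and -0.20 for ptc-miR168a-3p. When each Bo and Ov library was left out, the log2 fold change ran from -0.093 to 0.099 for ptc-miR159a, -0.40 to 0.11 for ptc-miR162a, -0.062 to 0.81 for ptc-miR164a, -0.14 to 0.18 for ptc-miR166a and -0.030 to 0.042 for ptc-miR168a-3p. It ran from -0.67 to 0.25 for ptc-miR396c, -0.78 to 0.25 for ptc-miR397a, -0.0028 to 0.66 for ptc-miR398b, -0.072 to 0.84 for ptc-miR473a-3p and -0.41 to 0.10 for ptc-miR482c-3p. With 3 libraries a group and as few as 199583 reads, a miRNA without a read in Bo1 may still have a level of up to 15.0 RPM there.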
